A study of Mus musculus with 2 samples.

Results

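Rgs1, Adamdec1 and F2r are 3 of the 26124 genes counted in F4/80-enriched spleen cells, and they are described here in macrophages and in the other cells of 2 droplet libraries. They were chosen by their measured values, as genes that lead the macrophages of the library labelled SCD, so their difference between the libraries is a description and carries no test. The study asked how chronic heme exposure in sickle cell disease (SCD) alters spleen phagocytes. One library came from a mouse labelled wild-type, a non-sickling control that is homozygous for the Hbatm1Paz allele (Hba-/-), heterozygous for Hbbtm1Tow and hemizygous for the transgene Tg(HBA-HBBs)41Paz, which carries human hemoglobin genes. The other came from a Berkeley mouse labelled SCD, homozygous for both deleted alleles and for the transgene. Spleen cells were freed of red blood cells by lysis and enriched with beads against F4/80, a macrophage surface protein, and the mice had a mixed genetic background. Both mice were 12 to 16 weeks old and untreated, the labels give both the α-globin deletion and the transgene, and each condition is 1 mouse, so no difference below has a replicate check.

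RGS1 is a regulator of G-protein signalling of the R4 family. It speeds the shut-off of Gi and Gq proteins downstream of chemoattractant receptors and is best known from lymphocytes, where it dampens the response to chemokines. ADAMDEC1 (ADAM-like decysin-1) is a secreted metalloprotease related to the ADAM family that lacks the membrane anchor of its relatives and is a known product of tissue macrophages and maturing dendritic cells. F2r encodes PAR1, the main thrombin receptor, a G-protein-coupled receptor that thrombin switches on by cutting its extracellular end, which exposes a ligand that stays attached to the receptor. Red pulp macrophages are the spleen cells that clear aged red blood cells and recycle their iron, and chemoattractant receptors, G proteins and coagulation proteases are the neighbours of these 3 genes in signalling.

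Rgs1 lies on chromosome 1 (144242296 to 144249242), Adamdec1 on chromosome 14 (68563380 to 68582095) and F2r on chromosome 13 (95601803 to 95618487), all on the minus strand of GRCm38 in the GENCODE M21 annotation. Their identifiers are ENSMUSG00000026358, ENSMUSG00000022057 and ENSMUSG00000048376. The coding sequences hold 209 codons in Rgs1-208, 467 in Adamdec1-201 and 430 in F2r-201. Of these, 2 stretches are printed because they carry the activity of the proteins. In the first, the capitals mark codons 42 to 47 of F2r, the tethered ligand that thrombin exposes. In the second, they mark codons 351 to 361 of Adamdec1, its zinc-binding motif.
F2r: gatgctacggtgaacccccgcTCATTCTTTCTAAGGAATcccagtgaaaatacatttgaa
Adamdec1: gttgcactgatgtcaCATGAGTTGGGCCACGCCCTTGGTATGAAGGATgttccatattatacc

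The start site region of F2r is shown next (RefSeq, GRCm38.p6, chr13:95618417-95618716, minus strand). Those of Rgs1 and Adamdec1 were not searched, so the matches below hold for F2r alone. The capitals mark TGAGTCA, which lay 204 bases before the start. It is a match to AP-1, searched as TGACTCA or TGAGTCA, which are the same site read on either strand. The site of small Maf and NRF2 dimers (MARE, searched as TGACNNNGC) matched on the other strand, at the letters printed as GCTGAGTCA, and overlaps the AP-1 match. Of 32851 promoters of this length, 5.20% held the AP-1 letters and 12.4% held a MARE match. Also searched on both strands, with no match in this window, were GAGGAAG for PU.1 (in 13.6% of the promoters), AGATAA for the GATA factors (11.2%), TGACGTCA for the cyclic AMP element (1.79%), CACGTG for the E-box (7.15%), and the ISRE (3.44%) and NF-kappaB (4.51%) motifs.
F2r promoter: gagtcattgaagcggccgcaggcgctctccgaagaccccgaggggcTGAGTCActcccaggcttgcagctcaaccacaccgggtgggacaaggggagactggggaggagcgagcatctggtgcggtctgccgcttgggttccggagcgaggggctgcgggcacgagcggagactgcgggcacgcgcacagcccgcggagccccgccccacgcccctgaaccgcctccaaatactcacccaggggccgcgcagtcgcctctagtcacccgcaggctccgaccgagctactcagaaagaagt

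After filtering, 19419 cells labelled wild-type and 12280 labelled SCD were kept, with a median of 4115 and 4570 UMIs (unique molecular identifiers, each standing for 1 captured RNA molecule). The libraries shared 107 cell barcodes, of which 65 were kept in both. The globin RNA went against the labels. Hbb-bs, an adult β-globin gene at the locus that Hbbtm1Tow deletes, was counted at 57.0 CPM (UMIs of the gene per 1000000 UMIs) over all cells labelled wild-type but at 10551 CPM over those labelled SCD, whose genotype has no intact copy. Hba-a1, an α-globin gene at the locus that the labels give as deleted in both mice, was counted at 10915 and 3531 CPM over the same cells. The labels do not say which part of a locus an allele removes, and reads of the human transgene were not told apart. The directions below are therefore those of the library labels. Ddx3y, a Y-linked gene, was at 176 and 185 CPM, so RNA of male cells was in both.

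Macrophages were taken as clusters with the red pulp macrophage markers and little erythroid RNA (RPM-like, 4976 of the 19419 cells labelled wild-type and 1604 of the 12280 labelled SCD). A second class had the same markers beside erythroid RNA, as erythroblastic islands do (EBI-like, 4763 and 777 cells). The defining markers were high in RPM-like cells of both libraries: Spic was at 987 and 1683 CPM, Vcam1 at 8132 and 8188 CPM, and C1qa at 3879 and 3449 CPM. Cd5l was lower in the library labelled SCD (3003 and 556 CPM). Different clusters held most of the class in either library. Of the cells labelled wild-type, 3599 lay in a cluster led by Gpnmb and Marco and 1078 in a cluster led by Gm37697 and Adam33. Of those labelled SCD, 1541 lay in a cluster whose leading genes were Rgs1, Adamdec1 and Cpne4. The 3 members had been held out of the clustering. Only 55 cells labelled wild-type lay in that cluster, so its leading genes largely repeat the difference that the members were chosen for.

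In RPM-like cells, Rgs1 was at 59.7 CPM (95% interval 56.3 to 63.2) among those labelled wild-type but at 741 CPM (722 to 761) among those labelled SCD, from 1142 and 5498 UMIs. Adamdec1 was at 21.4 CPM (19.4 to 23.5) and 364 CPM (351 to 378), from 409 and 2703 UMIs. F2r was at 0.836 CPM (0.478 to 1.36) and 24.0 CPM (20.6 to 27.8), from 16 and 178 UMIs. All 3 were higher in the library labelled SCD, the difference they were chosen for, so the gap between their intervals is no result. These are exact Poisson intervals and, like every interval here, they cover counting error only.

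The ratio of the library labelled SCD to the library labelled wild-type was 12.4-fold for Rgs1 (log2 3.63, 3.54 to 3.73), 17.0-fold for Adamdec1 (log2 4.09, 3.94 to 4.25) and 28.7-fold for F2r (log2 4.84, 4.10 to 5.68). Over both libraries together, 10177 genes reached 100 UMIs in this class. Of these, 784 were at least 2-fold higher in the library labelled SCD (7.7%) and 473 at least 2-fold lower (4.65%), with a median log2 ratio of 0.18. By size, F2r stood at place 6, Adamdec1 at place 9 and Rgs1 at place 14 from the highest, a position that their choice fixed. The ratios moved by over 1.5 times where cells with at least 200 genes, and no upper limit of genes, were admitted. They were then log2 2.33 for Rgs1, 3.40 for Adamdec1 and 3.49 for F2r. In that clustering, 1357 of the 1604 RPM-like cells labelled SCD fell into a cluster that also held T lymphocyte genes among its leading genes and so lost its name. With the same cells and clusters named by the macrophage markers alone, the ratios were 3.13, 3.90 and 3.41. F2r, which rests on 16 UMIs in the library labelled wild-type, also moved to log2 3.71 where RPM-like and EBI-like cells were 1 class, to 3.47 in cells chosen by Spic, Vcam1 and Cd5l UMIs without clustering, and to 7.73 with the level of the main B lymphocyte-like cluster subtracted.

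EBI-like cells come from the same mice and have the same macrophage markers, so the choice of the members bears on them too. All 3 members were higher there in the library labelled SCD. Rgs1 was at 40.9 and 374 CPM, Adamdec1 at 15.9 and 280 CPM, and F2r at 2.32 and 17.2 CPM in the libraries labelled wild-type and SCD. These are log2 ratios of 3.19 (3.07 to 3.31), 4.14 (3.97 to 4.31) and 2.89 (2.33 to 3.44). Of 10137 genes tested there, 4.33% were at least 2-fold higher and 8.32% at least 2-fold lower, with a median log2 ratio of -0.04. The EBI-like cells labelled SCD came mainly from 1 cluster of 637 cells led by Hbb-bs and Hbb-bt.

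**Figure D1:**
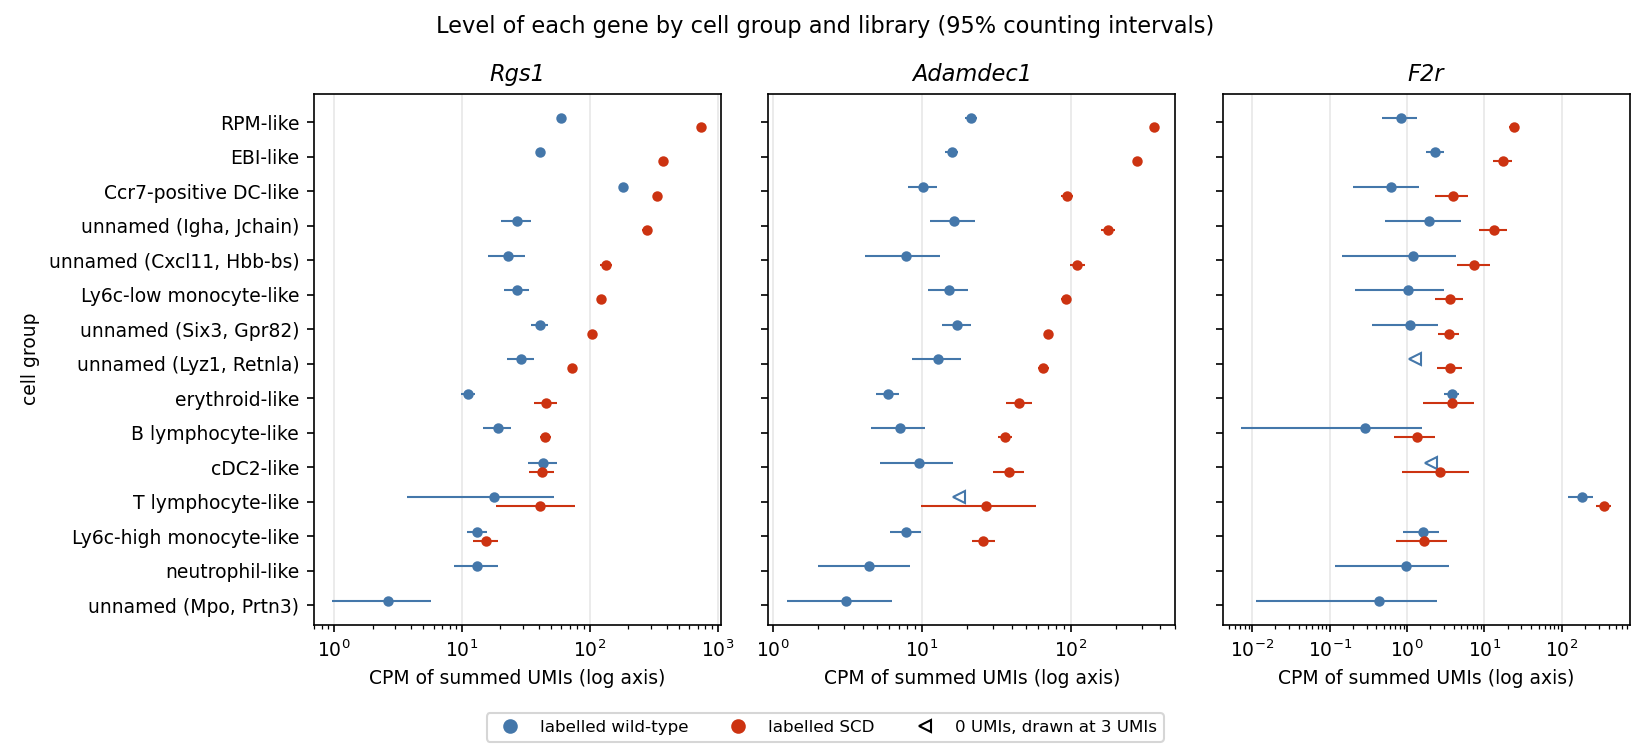
Level of each member, as CPM of summed UMIs on a log axis, in each cell group with at least 50 cells in a library; points are the libraries labelled wild-type (blue) and SCD (red), bars are exact Poisson 95% intervals, and open triangles mark 0 UMIs drawn at the level of 3 UMIs. In RPM-like cells the red points stand at 741, 364 and 24.0 CPM against 59.7, 21.4 and 0.836 CPM.

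Rgs1 was not particular to macrophages. Its level in the library labelled wild-type stood highest in Ccr7-positive DC-like cells, named by markers of mature dendritic cells, at 180 CPM (171 to 190), above the 59.7 CPM of RPM-like cells. Of these 1264 cells, 572 lay in a cluster led by Il12b and by genes such as Slfn14 and Trim58, with none of the class's markers among its 10 leading genes, erythroid markers at 9.28 times the main B lymphocyte-like cluster and 59.3% of cells marked as doublets. The next levels were 43.1 CPM in cDC2-like cells, 40.9 CPM in EBI-like cells and 40.5 CPM in the unnamed cells led by Six3 and Gpr82, whose intervals overlapped. Erythroid-like cells (11.2 CPM) and Ly6c-high monocyte-like cells (13.2 CPM) were near the bottom of that order. RPM-like cells came first in the library labelled SCD (741 CPM), followed by EBI-like cells (374 CPM) and Ccr7-positive DC-like cells (337 CPM), whose intervals overlapped.

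The difference between the libraries in Rgs1 varied by cell group. In Ccr7-positive DC-like cells as 1 class it was log2 0.90 (0.80 to 1.01), but the direction was the opposite in the cluster led by Dkk2, the one with Ccr7 among its leading genes (436 and 645 cells). Rgs1 was there at 483 CPM (452 to 515) among cells labelled wild-type against 420 CPM (396 to 445) among those labelled SCD. In the clusters led by Il12b and by Hbb-bs it was at 83.4 and 103 CPM against 201 and 211 CPM. In cDC2-like cells the log2 ratio was -0.03 (-0.53 to 0.47) and in Ly6c-high monocyte-like cells 0.22 (-0.21 to 0.65). Of the 13 cell groups with at least 50 cells in each library, 10 had an interval above 0 for Rgs1, the others being cDC2-like, Ly6c-high monocyte-like and T lymphocyte-like cells.

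Adamdec1 had its highest level in RPM-like cells of either library. After RPM-like cells (21.4 CPM) in the library labelled wild-type came the cells led by Six3 and Gpr82 (17.2 CPM), those led by Igha and Jchain (16.3 CPM), EBI-like cells (15.9 CPM) and Ly6c-low monocyte-like cells (15.2 CPM), and these neighbours overlapped. For the library labelled SCD the order was RPM-like (364 CPM), EBI-like (280 CPM), cells led by Igha and Jchain (179 CPM), cells led by Cxcl11 and Hbb-bs (111 CPM), Ccr7-positive DC-like (94.0 CPM) and Ly6c-low monocyte-like (93.2 CPM), and the last 3 of these overlapped. Adamdec1 was higher in the library labelled SCD in 12 of the 13 groups with an interval above 0, from log2 1.73 in Ly6c-high monocyte-like cells to 4.14 in EBI-like cells. The other group, T lymphocyte-like cells, had 0 and 6 UMIs. The cells led by Igha and Jchain had macrophage markers at 4.82 times the main B lymphocyte-like cluster, with 34.8% marked as doublets. Of those led by Cxcl11 and Hbb-bs, 31.6% were so marked. Among cells labelled SCD, Adamdec1 was at 49.0% and 30.4% of its RPM-like level in these groups. The red pulp macrophage markers stood there at 43.1 to 51.9% and 23.2 to 33.8% of theirs.

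F2r was distributed over other cells. Its highest level was in T lymphocyte-like cells, where it was among the 10 leading genes of the cluster, at 179 CPM (121 to 255, 30 UMIs in 58 cells) for those labelled wild-type, with 347 CPM (274 to 433, 77 UMIs in 70 cells) for those labelled SCD. The level in RPM-like cells, 24.0 CPM, came second in the library labelled SCD, with EBI-like cells at 17.2 CPM and the cells led by Igha and Jchain at 13.3 CPM. Erythroid-like cells had the second level in the library labelled wild-type (3.78 CPM, 3.02 to 4.67), above RPM-like cells (0.836 CPM). Erythroid-like cells showed no difference that the count could resolve (3.78 and 3.75 CPM, log2 -0.01, -1.27 to 1.03). Of the 13 groups, 8 had an interval above 0 for F2r and 2 had 0 UMIs in the library labelled wild-type. The T lymphocyte markers, summed over 10 genes, were at 8.83 and 8.09 CPM in RPM-like cells of the libraries labelled wild-type and SCD. Each of these genes had too few UMIs there for its ratio to be tested. The part of T lymphocyte RNA in the F2r level of RPM-like cells was not tested.

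Some Adamdec1 UMIs in other cells stood at the level that macrophage RNA had there. In the main B lymphocyte-like cluster (526 and 1726 cells), B cells that should make neither macrophage genes nor Adamdec1, Adamdec1 had levels of 2.93 and 31.2 CPM. The second is 8.56% of the RPM-like level labelled SCD, within the 4.40 to 9.72% (median 9.10%) at which the 10 red pulp macrophage markers stood in the same B cells. It was also within the range in Ly6c-high monocyte-like cells (7.10%, against 3.86 to 9.17%) and just above it in cDC2-like cells (10.6%, against 7.48 to 10.5%). Rgs1 lay under the range in these groups of the library labelled SCD, at 2.65%, 2.08% and 5.70% of its RPM-like level. The library labelled wild-type differed in this. There, cDC2-like cells had Rgs1 at 72.3% and Adamdec1 at 44.9%, above the 9.24 to 18.7% of the markers, and Ly6c-high monocyte-like cells had Adamdec1 at 36.6%, against 24.8 to 32.6%, with Rgs1 under that range at 22.1%. Its main B lymphocyte-like cluster had both within the 6.37 to 15.3% of the markers (9.81 and 13.7%). F2r had 1 UMI in that cluster, or 0.732 CPM (0.0185 to 4.08), an interval that holds the 0.836 CPM of RPM-like cells. The F2r level of RPM-like cells labelled wild-type thus could not be told from that of these B cells.

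Levels above the range of the macrophage markers were found as well. In Ccr7-positive DC-like cells of the library labelled SCD, Rgs1 was at 45.5% of its RPM-like level and Adamdec1 at 25.8%, against 14.7 to 20.7% for the markers. By cluster, Adamdec1 was there at 74.9 CPM in the cluster led by Dkk2 and 132 CPM in the one led by Hbb-bs. Ly6c-low monocyte-like cells had Adamdec1 at 25.6%, against 16.5 to 21.7%. The cells led by Six3 and Gpr82 had it at 19.4%, against 10.4 to 15.3%. F2r stood at 1444% in T lymphocyte-like cells, against 3.37 to 15%. It also lay slightly above the ranges in the cells led by Igha and Jchain (55.4%, 25 UMIs). The same held in erythroid-like cells (15.6%, 8 UMIs) and cDC2-like cells (11.1%, 5 UMIs). The counting intervals of these levels took in the marker ranges, so F2r could not be told from them there.

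**Figure D2:**
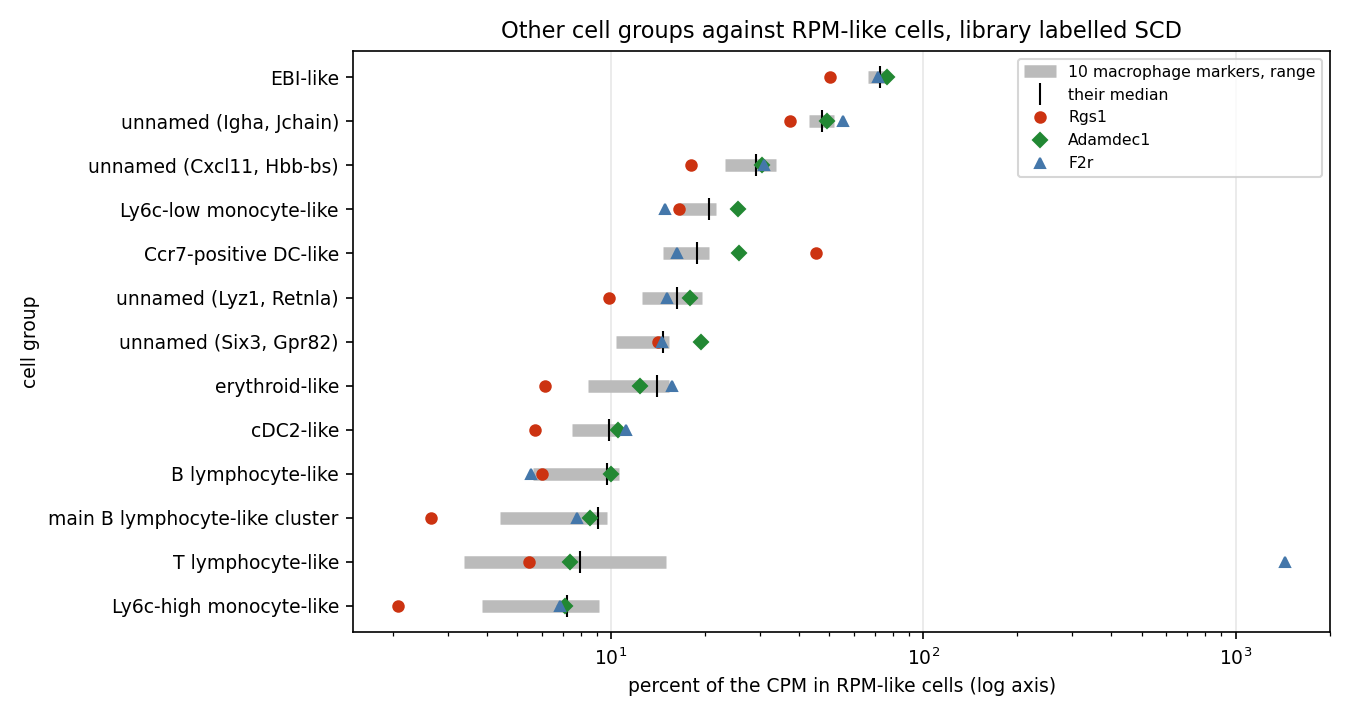
Level of each member in the other cell groups of the library labelled SCD, as a percent of its CPM in RPM-like cells (log axis), with grey bars for the range and black ticks for the median of the 10 red pulp macrophage markers in the same cells. Adamdec1 (green) lies at 8.56% in the main B lymphocyte-like cluster beside a marker median of 9.10%, Rgs1 (red) lies at 45.5% in Ccr7-positive DC-like cells, and F2r (blue) at 1444% in T lymphocyte-like cells.

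The ratio of Adamdec1 to Rgs1 UMIs differed between cell groups of a library. Among cells labelled SCD it was 0.492 (0.469 to 0.515) in RPM-like cells, 0.749 (0.687 to 0.817) in EBI-like cells, 0.279 (0.250 to 0.310) in Ccr7-positive DC-like cells and 1.59 (1.25 to 2.02) in main B lymphocyte-like cells. Among those labelled wild-type it was 0.358 (0.319 to 0.401) in RPM-like cells and 0.0564 (0.0446 to 0.0704) in Ccr7-positive DC-like cells.

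Cells were thinned to 1000 UMIs each to compare how many had the RNA at all, which left out 687 and 146 RPM-like cells with fewer. A Rgs1 UMI was found in 3.52% (2.99 to 4.12) of RPM-like cells labelled wild-type and 42.5% (39.9 to 45.0) of those labelled SCD. Adamdec1 was found in 2.05% (1.65 to 2.52) and 28.9% (26.6 to 31.3), and F2r in 0.163% (0.0656 to 0.336) and 2.19% (1.51 to 3.08). Among the main B lymphocyte-like cells these were 0.960% and 1.64% for Rgs1, 0.384% and 2.92% for Adamdec1, and 0 of 521 cells and 0.234% for F2r. Without thinning, the shares in RPM-like cells were 11.9% and 68.7% for Rgs1, 6.55% and 63.7% for Adamdec1, and 0.322% and 9.35% for F2r, at median depths of 2250 and 4111 UMIs (2188 and 2895 in the B cells). Each share of the library labelled SCD was above that of its B cells, an order that the choice of the members fixed. F2r was seldom seen in any single macrophage.

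**Figure D3:**
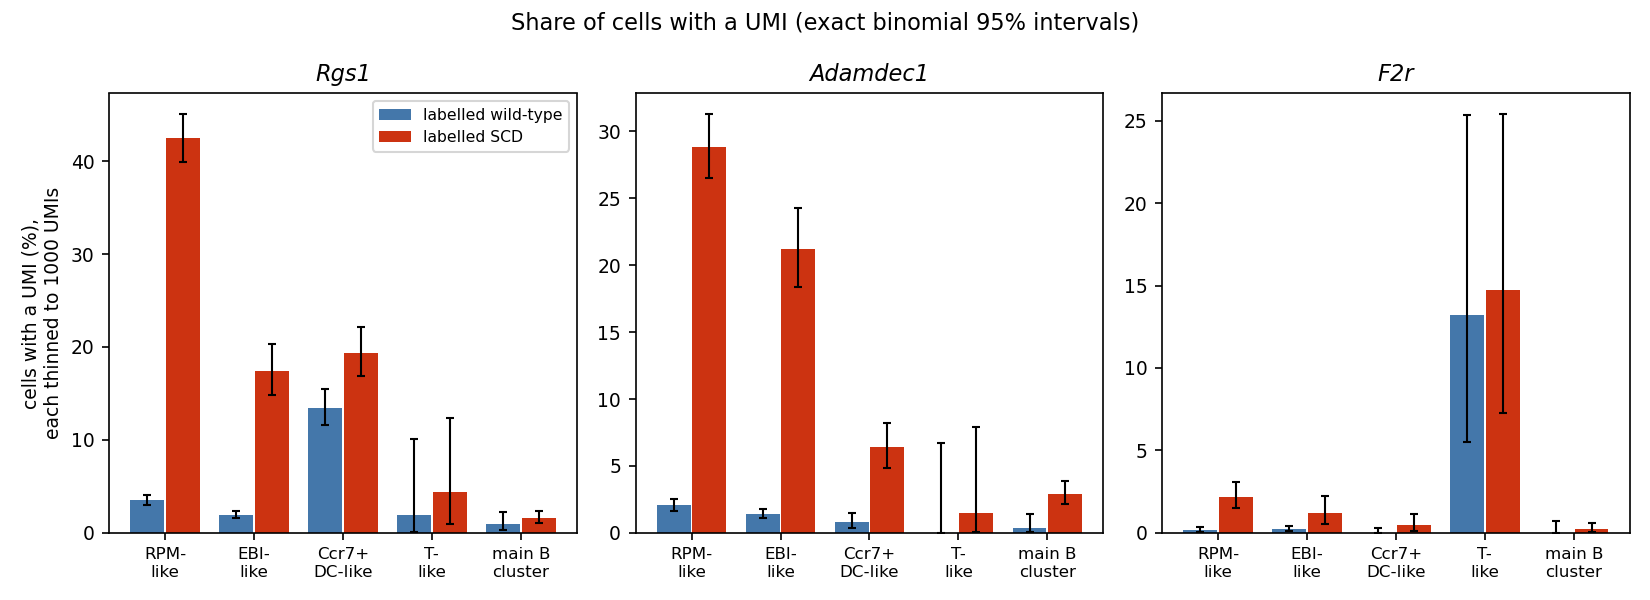
Percent of cells with at least 1 UMI of each member after thinning every cell to 1000 UMIs, in 5 cell groups of the libraries labelled wild-type (blue) and SCD (red); whiskers are exact binomial 95% intervals. RPM-like bars reach 42.5, 28.9 and 2.19% in the library labelled SCD, and the F2r bars are highest in T lymphocyte-like cells in both libraries.

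Most thinned cells with a UMI of a member had only 1. Of RPM-like cells labelled SCD, 24.8% had 1 Rgs1 UMI, 14.7% had 2 or 3 and 2.88% had 4 or more, with a highest count of 7. For Adamdec1 these shares were 22.6%, 5.97% and 0.343%. Of the same cells, 41.2% had a UMI of none of the 3 members, 44.2% of 1, 14.5% of 2 and 0.137% (2 cells) of all 3. Rgs1 and Adamdec1 were found together in 13.4% of cells, close to the 12.3% that is the product of their shares.

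Within the macrophages of 1 library, Rgs1 varied more than Adamdec1. For the library labelled wild-type, Rgs1 was at 22 CPM (18.9 to 25.4) in the RPM-like cluster led by Gpnmb, 47.9 CPM (39.1 to 57.9) in the one led by Ifitm1 and 97.7 CPM (91.2 to 105) in the one led by Gm37697, while Adamdec1 was at 20.2, 20.1 and 21.8 CPM in the same clusters. The cluster led by Gm37697 was also deeper, with a median of 7232 UMIs per cell against 1648 in the cluster led by Gpnmb. After thinning to equal depth, 8.47% and 1.74% of their cells had a Rgs1 UMI. Among the larger EBI-like clusters of that library, Rgs1 ran from 12.3 to 49.8 CPM and Adamdec1 from 12.3 to 18.9 CPM.

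The clusters that few cells of the other library entered gave the same order of libraries. The 54 cells labelled SCD in the cluster led by Gpnmb had Rgs1 at 396 CPM (279 to 546) and Adamdec1 at 161 CPM (89.9 to 265), against 22 and 20.2 CPM in the 3599 cells labelled wild-type of that cluster. The 55 cells labelled wild-type in the cluster led by Rgs1 had Rgs1 at 171 CPM (101 to 269) and Adamdec1 at 104 CPM (52.0 to 186), against 749 and 367 CPM in the 1541 cells labelled SCD. F2r had 0 UMIs in both of these small sets, which at 93371 and 105562 UMIs allows up to 39.5 and 34.9 CPM and so resolves no difference.

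**Figure D4:**
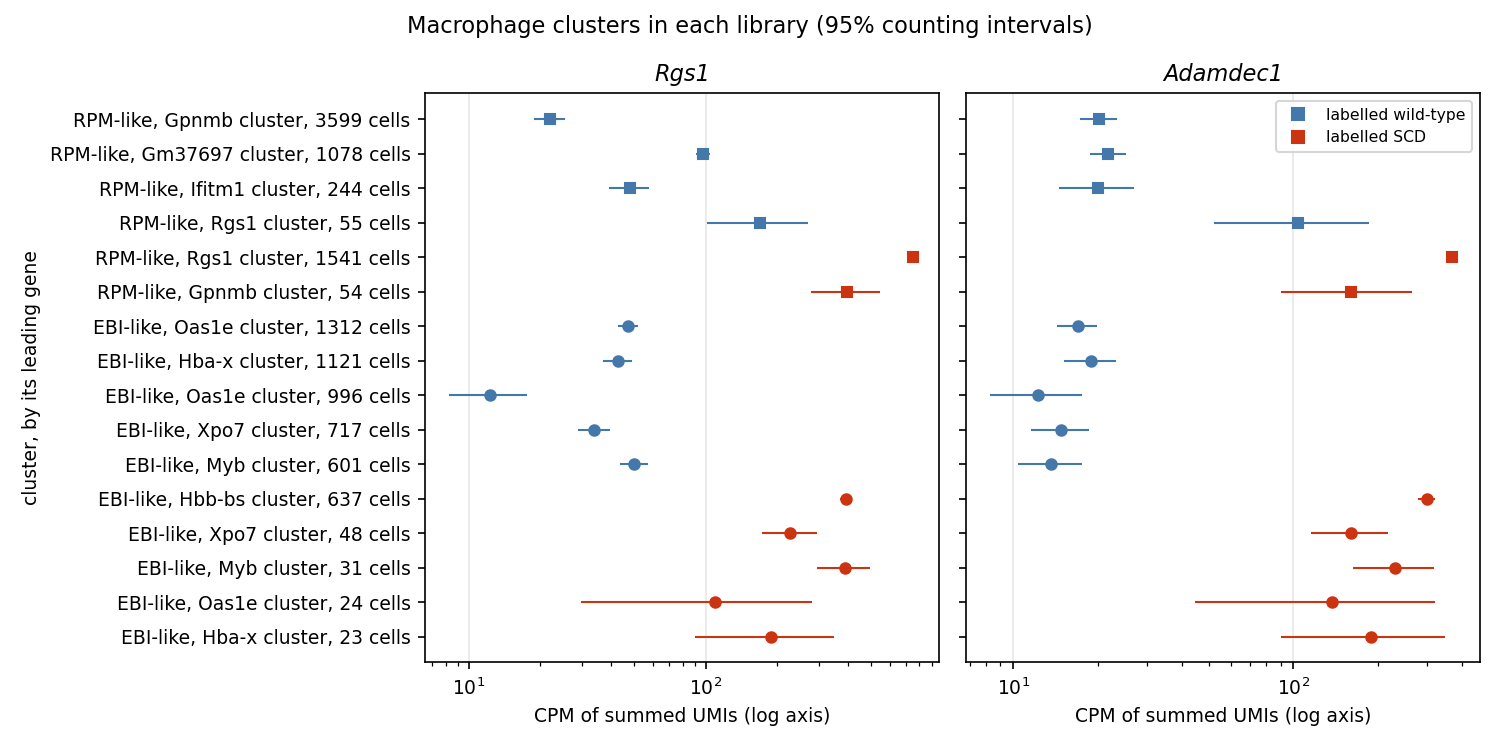
CPM of Rgs1 and Adamdec1 (log axes) in the RPM-like (squares) and EBI-like (circles) clusters of the libraries labelled wild-type (blue) and SCD (red), each cluster named by its leading gene with its number of cells; bars are exact Poisson 95% intervals. For the library labelled wild-type, Rgs1 runs from 12.3 to 171 CPM while Adamdec1 stays between 12.3 and 21.8 CPM but for the 55 cells of the cluster led by Rgs1.

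The genes whose levels were most like those of a member were found over 28 profiles, the cell groups of at least 50 cells in each library, as Pearson's r of log2(CPM + 1). The profiles of a library share its free RNA and depth, so r is a description. For Adamdec1 these were Ubd (0.95), a ubiquitin-like modifier, Kcnj16 (0.95), a potassium channel, Cpne4 (0.94), Mcc (0.93) and Slc22a17 (0.89). For Rgs1 they were Mcc (0.87), Kcnj16 (0.87), Hap1 (0.86), Iigp1 (0.85), an interferon-induced GTPase, and Etv5 (0.85). Rgs1 and Adamdec1 had an r of 0.83 with each other. For F2r they were Ikzf2 (0.88), a T cell transcription factor, Tnfsf10 (0.87), the death ligand TRAIL, Ppm1b (0.83), Setd4 (0.82) and Zbtb6 (0.80), a set that rested on the T lymphocyte-like profiles, since without them r was between 0.44 and 0.68. F2r itself had an r of 0.29 with Rgs1 and 0.19 with Adamdec1, and without the T lymphocyte-like profiles these were 0.70 and 0.85.

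The relatives of the members had smaller ratios than the members. The members were chosen for their difference, so this order is no result about the families. Of the 10 R4 RGS genes, 4 reached 100 UMIs in RPM-like cells. Among these, Rgs1 and Rgs2 were at least 2-fold higher in the library labelled SCD, beside 7.7% of all genes. Rgs2, which acts mainly on Gq, was at 249 and 595 CPM (log2 1.26). Rgs3 was at 59.3 and 105 CPM (log2 0.83), and Rgs18, a gene of platelets and myeloid cells, was at 5.07 and 1.89 CPM (log2 -1.43). Rgs4 and Rgs5 had 20 and 2 UMIs in all, and Rgs8, Rgs13, Rgs16 and Rgs21 had none. Among 4 other RGS genes with enough UMIs, only Rgs14 reached 2-fold (3.87 and 8.09 CPM, log2 1.06), a call lost under the TMM scaling given further on. Rgs10 was at log2 0.59 and Rgs12 was lowest (log2 -0.34). The median log2 ratio of these 4 was 0.57, against 0.18 over all genes tested.

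Of the 4 protease-activated receptors, F2r alone had enough UMIs. F2rl1 (PAR2) had 1 UMI, F2rl2 (PAR3) 3 and F2rl3 (PAR4) 4 in RPM-like cells of both libraries together. Of 20 genes of thrombin generation and control, 6 had enough UMIs and none was at least 2-fold higher. Tfpi, the tissue factor pathway inhibitor, was at 10.5 and 19.5 CPM (log2 0.90). Procr, the protein C receptor that works beside PAR1, was at 4.55 and 3.50 CPM (log2 -0.38), and Plau, the urokinase gene, at 4.49 and 4.58 CPM (log2 0.03).

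The listed genes of G-protein signalling differed little. Of 17 genes, all with enough UMIs, 0 reached 2-fold in either direction, with a median log2 ratio of 0.26. The furthest above were Arhgef1 (log2 0.81) and Grk6 (0.73), and the furthest below Gnas (-0.76) and Gna12 (-0.46). Chemoattractant receptors that signal through Gi, the inputs RGS1 is known to restrain, went both ways. Of 15 with enough UMIs, 7 were at least 2-fold higher and 3 at least 2-fold lower, beside 7.7% and 4.65% of all genes. Lpar6, a lysophosphatidic acid receptor, was at 5.96 and 30.9 CPM (log2 2.37) and P2ry14, the UDP-glucose receptor, at 27.5 and 95.2 CPM (log2 1.79). Ptafr, the receptor for platelet-activating factor, was at 188 and 33.2 CPM (log2 -2.50) and C3ar1, the complement C3a receptor, at 12.1 and 3.91 CPM (log2 -1.63). The median of that list was 0.12.

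Among ADAM genes, 9 of 14 had enough UMIs, of which 2 were at least 2-fold higher and 2 lower, beside 7.7% and 4.65% of all genes. One of the higher genes is Adamdec1, chosen for its difference. The other, Adam23, was at 57.0 and 156 CPM (log2 1.45), while Adam19 (log2 -1.30) and Adam8 (-1.29) were lower. The other 5 lay within 2-fold, and the median of the list, with Adamdec1 in it, was -0.03.

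Of 11 genes of activation and inflammation, 6 were at least 2-fold higher and 1 was lower, beside 7.7% and 4.65% of all genes, with a median log2 ratio of 1.01. Il1b, encoding interleukin-1β, was at 10.4 and 327 CPM (log2 4.98), Cxcl10, an interferon-induced chemokine, at 4.44 and 50.6 CPM (log2 3.51), and Ccl3 at 7.16 and 0.674 CPM (log2 -3.41). Ccl4 was the next lowest (log2 -0.52). Of 12 immediate early genes, 6 were higher and 1 lower (median 0.91). Fos was at 1.99 and 21.2 CPM (log2 3.41), Nr4a1 at 23.7 and 85.7 CPM (1.85) and Jun, whose product pairs with that of Fos, at 37.8 and 11.3 CPM (-1.74), with Ier3 at -0.61. All 7 genes of MHC class II presentation were at least 2-fold higher (median 1.73), led by Cd74 (982 and 3419 CPM, log2 1.80) and H2-Ab1 (379 and 1307 CPM, log2 1.79). These lists were chosen with earlier results of the same libraries known, and a count in them is no test of the list.

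**Figure D5:**
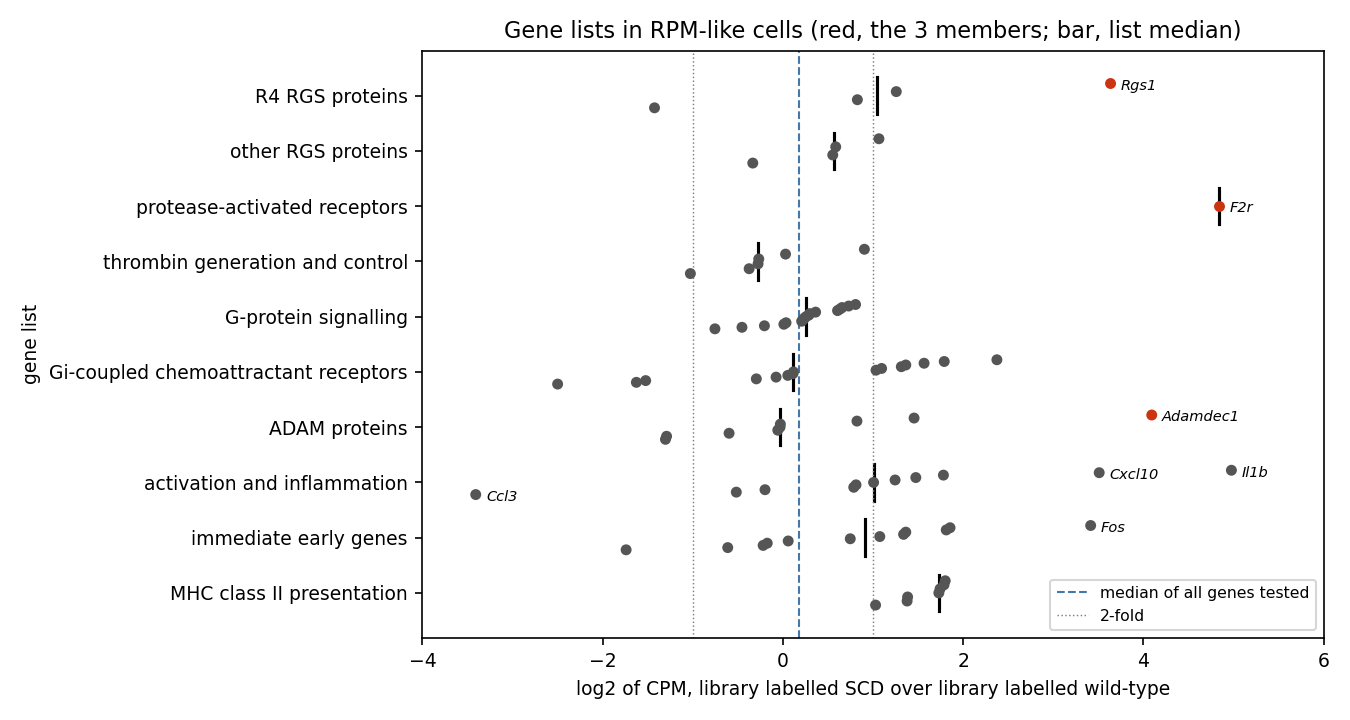
Log2 ratio of CPM, library labelled SCD over library labelled wild-type, of the genes that reached 100 UMIs in RPM-like cells in 10 gene lists; each point is a gene, red points are the members, black bars are list medians with the members included, the dashed line is the median of all genes tested (0.18) and dotted lines mark 2-fold. The members stand at 3.63, 4.09 and 4.84, while the 17 G-protein signalling genes all lie within 2-fold.

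TMM scaling of the 2 summed profiles (edgeR), which lowers every log2 ratio by 0.21, brought the median of all genes to -0.03 and the calls to 4.49% higher and 6.49% lower. Rgs1, Adamdec1 and F2r were then at log2 3.42, 3.88 and 4.63. Under it 5 Gi-coupled receptors, 5 activation genes, 5 immediate early genes and 6 MHC class II genes were at least 2-fold higher, and the R4, ADAM and G-protein counts were as above. The median of the Gi-coupled receptors turned from 0.12 to -0.10.

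The nearest protein-coding genes on the chromosome had smaller ratios than the members or too few UMIs to be tested. As the members were chosen for their difference, this order is no result about the loci. Beside Rgs1 lie the RGS genes described above, Rgs13 and Rgs21 at 0 UMIs, Rgs2 and Rgs18, with Uchl5, a deubiquitinase, at log2 0.27 and Brinp3 at 0 UMIs. Adamdec1 lies 23.9 kb from Adam28 (1 and 4 UMIs) and 29.6 kb from Adam7 (0 UMIs), and beyond them Stc1 had 3 and 7 UMIs and Nefm, Nefl and Nkx2-6 had 0. F2r lies 8.69 kb from Iqgap2, a scaffold protein gene at 73.1 and 63.6 CPM (log2 -0.20), and near F2rl1 and F2rl2. Crhbp and S100z had 0 UMIs and Sv2c had 6 and 1.

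Markers of other cells in RPM-like cells differed between the libraries. Over all genes tested in this class, 7.7% were at least 2-fold higher in the library labelled SCD and 4.65% at least 2-fold lower. The B lymphocyte markers summed to 87.0 CPM for cells labelled wild-type against 153 CPM for those labelled SCD. Cd79b made 63.5 and 61.6 CPM of these sums, and 5 of 6 testable genes were at least 2-fold higher. Ly6c-low monocyte markers summed to 617 and 1340 CPM, of which Adgre4 alone made 391 and 908 CPM, and 3 of 9 were at least 2-fold higher and 1 lower. The cDC1 markers summed to 792 and 1347 CPM, of which Cadm1 made 647 and 1141 CPM, and 2 of 4 testable genes were at least 2-fold higher. Endothelial markers summed to 275 and 473 CPM, of which Pecam1 made 87.8 and 266 CPM, with Tek and Ptprb at 0 in the latter. Erythroid markers (668 and 150 CPM) and neutrophil markers (111 and 7.68 CPM) were lower among cells labelled SCD. The Ccr7-positive DC markers, the class with the highest Rgs1 outside macrophages, were at 59.2 and 58.4 CPM. The part of these cells in the members' levels was not tested.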

How the data were processed

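Droplet RNA sequencing (10x Chromium 3′) of F4/80-enriched spleen cells gave 1 library per condition. The authors deposited UMI counts, 1 value per gene in each cell barcode, which per the labels were made with Cell Ranger 4.0.0 on GRCm38.p6 (the file headers name another release). No values were normalized before deposit, and the filtered matrices of 24144 and 15442 barcodes hold 145953464 and 73986356 UMIs.

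Cells with 500 to 5000 genes, at most 15% mitochondrial and 30% ribosomal-protein UMIs were kept, after the filter in the study's methods. Size factors (scran 1.30.0), 2000 variable genes without the members, 7 heme and iron genes, hemoglobin and sex-linked genes, 30 principal components, 15 neighbours and Leiden clustering at resolution 1 (igraph 0.11.9, Scanpy 1.11.5) gave 34 clusters. A cluster was macrophage-like where the median of its red pulp macrophage markers was at least 4 times that of the main B lymphocyte-like cluster, and EBI-like where erythroid markers were also at least 2 times. Other names needed 3 markers in at least 10% of cells, and a cluster stayed unnamed where its 10 leading genes held fewer of its own markers than of some other class. These limits, the members and the gene lists were chosen with earlier results of these data known. Names were rebuilt from the counts, so they can differ from the study's. Scrublet marked 0 and 1679 cells by its own threshold. It had therefore not worked on the library labelled wild-type, whose highest-scoring 2038 cells were taken in place, and doublets were left out only as an alternative.

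Levels are CPM of UMIs summed over cells, with exact Poisson intervals, and ratios have exact conditional binomial intervals, at 95%. Shares are of cells thinned to 1000 UMIs, with exact (Clopper-Pearson) intervals. With 1 mouse per condition no test was made. Genes were named as the members, the 2 highest and 2 lowest ratios of each list among genes with at least 100 UMIs, the 5 most like each member the 3 nearest protein-coding genes on each side, and hemoglobin genes as a check of the labels. 1 gene that this rule names is not reported here. Any other gene was named after its values were seen. Alternatives covered the cell filter, doublets, shared barcodes, clustering, the definition of macrophages, library totals with edgeR 4.0.16 TMM, cell weights, free RNA and thinning depth. Antisense and overlapping genes were counted as the files give them.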

Additional observations from a re-analysis of the deposited data

How the results depend on the processing

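Each library is 1 mouse, so the intervals hold counting error alone, and the order of the libraries can be told apart neither from the animal nor from its preparation. F2r is limited by depth, with 16 UMIs in RPM-like cells labelled wild-type. No paired analysis was possible because each condition has 1 sample and no test was made. All 3 log2 ratios stayed above 0 under each of the 16 alternatives, and 6 of 16 for Rgs1, 11 for Adamdec1 and 11 for F2r stayed within the counting interval. With at least 200 genes per cell and no upper limit they were 2.33, 3.40 and 3.49. There the cluster with most RPM-like cells labelled SCD lost its name. With clusters taken by the macrophage markers alone, a setting chosen after seeing the data, the ratios were 3.13, 3.9 and 3.41 with that cell filter. With the usual cell filter, that naming gave 3.52 for Rgs1. TMM scaling gave 3.42 for Rgs1 and 3.88 for Adamdec1, separate clustering 3.26 and 3.79, and the mean over cells 4.06 and 4.29. Rgs1 was 3.45 at resolution 2 and 3.48 with no gene held out. Cells chosen without clustering gave 3.21 for Rgs1 and 3.47 for F2r, and a joint class with EBI-like cells gave 3.71 for F2r. Subtraction of the B cell level gave 3.74 for Rgs1 and 7.73 for F2r, the latter against a remainder of 0.104 CPM. The cause of these shifts was not tested. Genes at least 2-fold higher and lower were 16.6% and 16.1% with no count filter, 4.56% and 2.54% with at least 1000 UMIs, and 4.49% higher with TMM. Over thinning to 500 or 2000 UMIs and no thinning, the share of RPM-like cells labelled SCD with a UMI ran from 24.9 to 68.7% for Rgs1, 16.5 to 63.7% for Adamdec1 and 0.686 to 9.35% for F2r.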
